A study of Mus musculus with 96 samples.

Results

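The replication-dependent histone genes of the mouse lie in 4 clusters, Hist1 to Hist4, and they were followed here through 96 single HSC1 cells. Members were taken by symbol, as every row of the count table that starts with Hist1h, Hist2h, Hist3h or Hist4h, which gave 70 of 38406 genes. Of these 70, 56 belong to the Hist1 cluster on chromosome 13, 10 to Hist2 on chromosome 3, 3 to Hist3 on chromosome 11 and 1, Hist4h4, lies on chromosome 6. HSC1 is a sort gate that enriches for haematopoietic stem cells (HSCs): the cells lack lineage markers (Lin-), CD34, Flt3 and CD48 and carry c-Kit, Sca-1 and CD150. They came from the femurs and tibiae of C57BL/6 mice aged 9 to 12 weeks and were sorted 1 per well. All cells belong to this 1 group, with no treatment or altered genotype in the labels. Which animal gave which cell is not stated in the sources used here, so the cells count as 1 sample, and relations across them are described with no p-value.

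Histones H2A, H2B, H3 and H4 form the core of the nucleosome, and linker histone H1 binds the DNA where it enters and leaves. A dividing cell has to make new histones while it copies its DNA, and most clustered histone genes are switched on in S phase and silenced afterwards. Their mRNA ends in a conserved stem-loop instead of a poly(A) tail. The stem-loop is bound by SLBP, and the RNA is cut a few bases behind it with the help of the U7 snRNP. Some members are also read through to a poly(A) signal farther on, and Hist1h2bc, Hist1h1c and Hist2h2be are known to be made in that form. The cDNA of these libraries was primed with oligo-dT as in the Smart-seq2 protocol, which reads RNA with a poly(A) tail, and most HSCs in adult marrow are not in cycle. The members were therefore split by their annotation and not by their counts. A member was called long-end when an annotated coding transcript ran at least 200 bases past the stop codon and short-end otherwise. In GENCODE M21 on GRCm38, 25 members were long-end, 42 short-end and 3 pseudogenes (Hist1h2aj, Hist1h2al and Hist3h2bb-ps).

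The stem-loop marks the place where the usual histone mRNA ends, and most long-end members carry it too. A search of the sense strand of the annotated transcripts for the histone stem-loop consensus, which is 16 bases long and leaves any base open at positions 4, 10 and 13, found it in 41 members, of which 20 were long-end and 21 short-end, and in 47 of 55450 genes of the annotation, or 0.0848%. It began 22 to 59 bases past the stop codon. The long-end transcripts ran on for 155 to 4884 bases behind it, with a median of 805, and the short-end ones for 3 to 151, with a median of 33. Of the 21 short-end members without a match, 15 have a transcript annotated to within 10 bases of the stop codon, so the annotation stops short of the place where it lies in the others. No match was found for Hist1h2bc, whose annotated long-end transcript is spliced, or for Hist2h2be. The sequences below are from GENCODE M21 transcripts, 5′ to 3′ on the strand of the gene, with the stem-loop in capitals. The first 5 are long-end members, 1 for each histone family, with the highest mean among those of the family that carry the stem-loop, and the last 2 are short-end members that share nearly all of their sequence.
Hist1h1c, chr13:23739507-23739532, plus strand: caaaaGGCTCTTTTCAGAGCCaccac
Hist1h2ac, chr13:23683472-23683497, minus strand: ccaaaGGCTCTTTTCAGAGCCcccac
Hist1h2bg, chr13:23571838-23571863, plus strand: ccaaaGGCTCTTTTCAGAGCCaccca
Hist1h3e, chr13:23561898-23561923, minus strand: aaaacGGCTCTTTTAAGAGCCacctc
Hist1h4d, chr13:23581945-23581970, plus strand: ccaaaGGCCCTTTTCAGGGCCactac
Hist1h2ao, chr13:21810893-21810918, plus strand: aaaaaGGCTCTTTTCAGAGCCatcca
Hist1h2ap, chr13:21833026-21833049, minus strand: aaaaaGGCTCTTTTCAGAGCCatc

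Of the 41 matches, 25 carried the first of these stem-loops, 7 the one shown for Hist1h4d and 6 the one shown for Hist1h3e. The signal AATAAA lay in the last 50 bases of an annotated transcript for 11 of 25 long-end and 3 of 42 short-end members.

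After 3 technical filters, 92 cells were kept (cells 1, 2, 6 and 36 were left out). They held 739093 to 3473151 gene counts and 4945 to 8727 detected genes, and no pair of them held identical counts. Of the 9 HSC markers looked up, Slamf1, which encodes CD150, was counted in 58 cells and each of the others in more cells, up to 92. Cd48 had no counts in any of the 92 cells, which allows a share of up to 3.26%, whereas Cd34 was counted in 53 cells and Flt3 in 17. Of 19 markers of other marrow cells, 7 were at 0, among them Cd3e, Mpo and Elane. The rest had counts, most widely Pf4 and Itga2b in 34 cells each, Hbb-b2 in 31 and S100a8 in 9. Cells 66 and 71 stood apart in their histone counts, and the main results that rest on them are given with and without them.

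Histone transcripts were a small part of these libraries. All members together took 152633 counts in the 92 cells, 0.0974% of the gene counts, and between 0.00439% and 0.983% of a cell's counts, with a median of 0.0523%. Of the 70 members, 64 were counted in at least 1 cell and 6 in none: Hist1h1t, Hist1h2aa, Hist2h2aa1, Hist2h2aa2, Hist2h3b and Hist2h3c1. Zero of 92 cells allows a share of up to 3.26%. Hist1h1t encodes the linker histone of the testis. The 4 Hist2 genes on this list have no 50-base stretch that occurs nowhere else in the annotated transcripts (0% unique), so a count of 0 for them says little. A cell had counts for 3 to 47 members, with a median of 11. A further 20 members were counted in 1 to 4 cells, and 7 were counted in over 46 of the 92 cells.

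The length of the annotated 3′ end went with detection. Long-end members were counted in a median of 30.4% of cells, with a range of 0% to 89.1%, and short-end members in 4.89%, with a range of 0% to 63.04%. The median over all genes with any counts was 19.6%. When at least 10 reads were asked for, the medians were 19.57% and 2.17%, and when long ends began at 100 bases, 19.57% and 5.43%. Counts of the 25 long-end members made up 89.6% of the normalized histone counts, against 10.3% for the 42 short-end members. The median of their mean normalized counts was 23.9 against 0.978, and per kb of annotated exon 9.85 against 2.32. Long-end members also had more unique 50-base stretches, with a median of 75.4% against 33.6%. The part of transcript length and of shared sequence in these contrasts was not tested. In both sets there were exceptions. The long-end members Hist1h1t and Hist2h3c1 were in no cell and Hist1h4j in 1, whereas the short-end Hist1h2ao was in 58 cells, with a median of 5.48 normalized counts where it was counted. The short-end set also contains Hist1h2ae, which misses the limit by 1 base with 199 bases past the stop codon, and the long-end set Hist1h2bg, which meets it with 200. A short annotated end can also mean that the annotation holds no more than the coding sequence, as for Hist1h3i, and this was not tested.

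**Figure D1:**
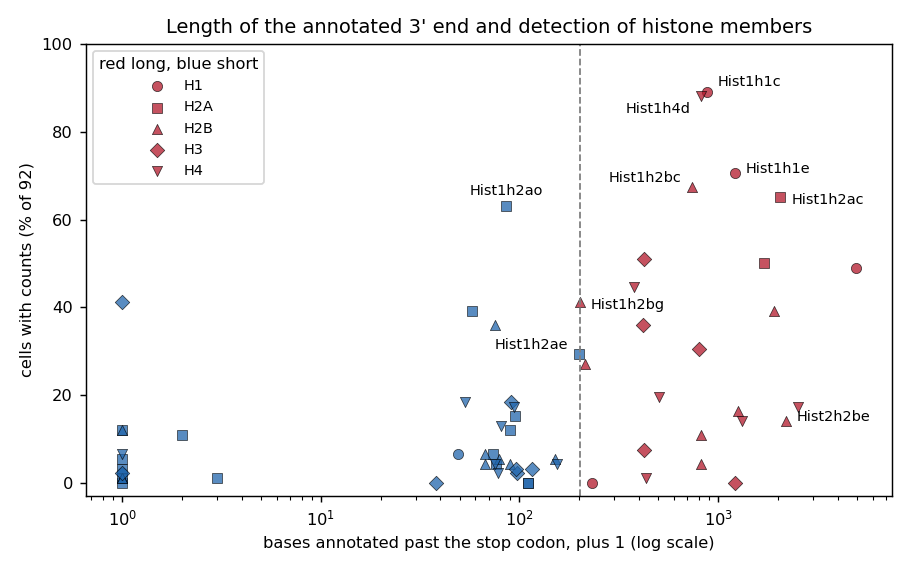
Each point is 1 of the 67 coding members, with the number of bases annotated past its stop codon plus 1 (log scale) on the x axis and the percent of the 92 cells with counts on the y axis. Shape gives the histone family, red long-end and blue short-end members, and the dashed line the limit of 200 bases. The 5 members counted in the most cells lie right of the line, and Hist1h2ao is the short-end member with the highest share, 63.04%.

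Normalized counts are counts divided by a size factor for the depth of the cell, and mean ± SD is taken over the 92 cells. By this measure 16 members reached a mean of 20, 14 of them long-end. Hist1h2ae and Hist1h3i were the short-end ones.

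Of the linker histones, Hist1h1c had the highest counts. It lies at chr13:23738808-23740367. It ranged from 0 to 2463 normalized counts, with a median of 146 and a mean of 281 ± 388 (SD, n = 92 cells). It was counted in 82 cells, or 89.1% (exact binomial 95% interval over cells, 80.9% to 94.7%). It was the member counted in the most cells, and its highest values came from cells 30 (2463), 11 (1669) and 20 (1249), with cell 71 below these at 691. Hist1h1e ranged from 0 to 201 with a median of 4.46 in 65 cells, and Hist1h1d from 0 to 314 with a median of 0 in 45 cells. The annotations of Hist1h1e and Hist1h2be overlap on the same strand, so the assignment of their reads is uncertain. The short-end linker histones Hist1h1a and Hist1h1b, which are linked to dividing cells, were counted in 6 and 2 cells.

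Among H2A genes, Hist1h2ac (chr13:23681467-23683948, minus strand) stood out. It ranged from 0 to 3528 with a median of 2.38 and a mean of 278 ± 600 in 60 cells, so that a few cells carried most of it. Cells 71, 27 and 20 were highest. Hist1h2ae was at 0 in most cells and reached 1318 in cell 31, with a mean of 69.4 ± 204 over all 92 cells and counts in 27. Hist3h2a had a mean of 35.3 ± 84.7 and was counted in 46 cells, with 517 in cell 71. It overlaps Trim17 on the same strand, so the assignment of its reads is uncertain. Hist1h2ao and Hist1h2ap, with means of 10.9 ± 35.2 and 2.21 ± 6.98, were counted in 58 and 36 cells. Only 6.50% and 6.93% of their 50-base stretches occur nowhere else in the annotated transcripts, so the counts of either may belong in part to the other. Most H2A members, Hist1h2ac and Hist1h2ae among them, also overlap a predicted gene on the opposite strand, and whether the counting used strand is not given in the sources used here.

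Among H2B genes, Hist1h2bc (chr13:23684199-23692908, plus strand) had the highest mean and the widest spread. It was counted in 62 cells, 67.4% (exact 95% interval 56.8% to 76.8%), ranged from 0 to 6334 with a median of 43.1, and had a mean of 199 ± 718. Cell 71 alone held 34.5% of its normalized counts. Cell 28 followed with 2671 and cell 20 with 736, so these 2 cells lay far above the other 90, which ran on from 0 to 736. Without cell 71, chosen after seeing the data, its mean was 131.8 ± 314. Hist1h2bg ranged from 0 to 2452 with a median of 0 and a mean of 119.8 ± 308 in 38 cells. Its highest cell was again 71, followed by cell 89 with 927. Of its 50-base stretches 50.3% are unique, and the others are shared with Hist1h2bc above all, so part of its counts is uncertain. Hist1h2be ranged from 0 to 1088 with a median of 0 and a mean of 23.9 ± 118 in 36 cells, and 49.5% of its counts came from cell 71. Hist2h2be, known to be polyadenylated and found in cells that no longer divide, was counted in 13 cells with a highest value of 179.5 in cell 45 and 0 in cell 71.

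Among H3 genes, Hist1h3e ranged from 0 to 996 with a median of 0.873 and a mean of 83.6 ± 168 in 47 cells. Its highest value came from cell 30, the cell that was also highest for Hist1h1c. Only 26.6% of its 50-base stretches are found nowhere else, the rest being shared with Hist1h3f above all. Hist1h3d had a mean of 37.96 ± 117 in 28 cells, Hist1h3f of 22.3 ± 70.6 in 33 cells and the short-end Hist1h3i of 20.7 ± 70.5 in 38 cells. Hist1h3i shares most of its sequence with other H3 genes, Hist1h3h above all, with 12.4% of its stretches unique.

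Among H4 genes, which nearly all encode the same protein, Hist1h4d was counted most widely. It ranged from 0 to 500.3 with a median of 36.2 and a mean of 64.3 ± 90.2, and was counted in 81 cells, or 88.04%. Hist1h4i had a mean of 40.03 ± 99.7 in 41 cells and reached 744 in cell 71. Hist4h4, the lone gene of its cluster, had a mean of 23.9 ± 70.6 in 16 cells. Per kb of annotated exon the means of Hist1h4d and Hist1h4i lay close together, at 56.5 and 55.1, although the former was counted in 81 cells and the latter in 41.

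**Figure D2:**
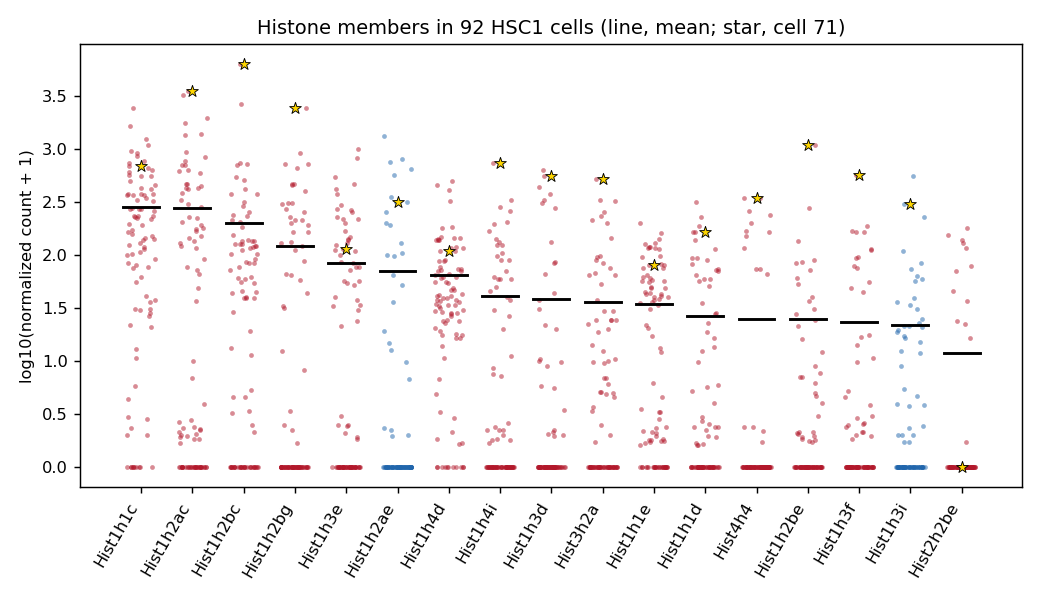
Each dot is 1 of 92 cells for the 16 members with a mean of at least 20 and for Hist2h2be, on the y axis as log10(normalized count + 1), ordered by mean. Red marks long-end and blue short-end members, the black line is the log10 of the mean + 1, and the star is cell 71. Cell 71 lies at the top for Hist1h2ac, Hist1h2bc, Hist1h2bg, Hist1h4i, Hist3h2a, Hist4h4, Hist1h2be and Hist1h3f. It lies inside the range of the other cells for Hist1h3e and Hist1h4d, and at 0 for Hist2h2be.

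Levels of different genes were compared per length, as the mean normalized count per kb of annotated exon. On this scale Hist1h2bg came first with 194, followed by Hist1h1c with 180.3, Hist1h2bc with 173, Hist1h2ac with 112, Hist1h3e with 99.98 and Hist1h2ae with 98.6. Hist1h4d had 56.5. For each of these the SD over cells exceeded the mean, and whether neighbours in this order differ was not tested. The order also depends on cell 71. Without it the mean count was 94.1 for Hist1h2bg (119.8 with it), 276 for Hist1h1c (281) and 131.8 for Hist1h2bc (199). The values per kb were not recomputed without this cell. The order by length differs from the order by counts because the annotated exons of these members run from 618 bases for Hist1h2bg to 2482 for Hist1h2ac.

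To learn which members varied more from cell to cell than spike-in RNA of the same abundance, the squared coefficient of variation (CV2) of each gene was compared with the technical curve fitted to the ERCC spike-ins. Of 64 members with counts, 13 lay above the curve (20.3%, against 12.4% of the 21211 genes tested) and 7 were called variable by the chi-square test at an adjusted p under 0.1 (10.9%, against 2.64% of all genes). The share above the curve was not stable against the background: with the curve fitted from the 50th percentile of spike-in means it was 21.9% of members against 25.1% of genes, with spike-in size factors 26.6% against 24.9%, and without cell 71 14.1% against 12.2%. The share called stayed above that of all genes in these settings, at 17.2% against 6.27%, 14.1% against 4.94% and 10.9% against 2.65%. Both shares depend on abundance. A gene with a mean under 2.18 cannot reach the curve with 92 cells, and 36 of the 64 members fell below that mean. Of the 28 others, 13 were above the curve, or 46.4%, against 20.8% of 12655 genes over the same mean. Among the 16 members with a mean of at least 20, 12 were above it and 7 were called (43.8%), against 23.4% and 4.84% of 8781 genes.

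The 7 called members all lie in the Hist1 cluster and comprise 1 linker histone (Hist1h1c), 2 H2A genes (Hist1h2ac, Hist1h2ae), 3 H2B genes (Hist1h2bc, Hist1h2bg, Hist1h2be) and 1 H3 gene (Hist1h3d). None of the 13 H4 genes was called at this threshold, although Hist1h4i, Hist2h4 and Hist4h4 lay above the curve. Without cell 71 only Hist2h4 stayed above it (ratio 1.18), with 0.679 for Hist1h4i and 0.937 for Hist4h4. Hist1h2bc had the largest ratio of its CV2 to the technical value, 11.5 (chi-square test, adjusted p = 1.27e-118), and Hist1h2ac followed with 5.54 (adjusted p = 3.06e-34). The ratios of Hist1h2bg, Hist1h2ae and Hist1h2be were 3.696, 2.88 and 2.87, and those of Hist1h1c and Hist1h3d 2.28 and 1.75. At the other end, Hist1h4d and Hist1h1e, which were counted in most cells, lay below the curve with ratios of 0.608 and 0.295. Lying below it was common, since the median ratio of all genes with a mean of at least 20 was 0.768. Hist2h2be had 0.546 and was not called.

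Part of this variation rested on cell 71. Without it the ratio of Hist1h2bc dropped from 11.5 to 3.45 (adjusted p = 5.41e-17), that of Hist1h2bg from 3.696 to 1.76 (adjusted p = 0.0203), and Hist1h2be was no longer called, with a ratio of 0.544. Hist1h3e was then called instead (adjusted p = 0.0941, against 0.120 with the cell), so the count stayed at 7. Without cell 71, 9 members lay above the curve, and without cell 66, 12, against 13 with both. These p-values measure spread between the cells of 1 sample, and variation between animals does not enter them.

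**Figure D3:**
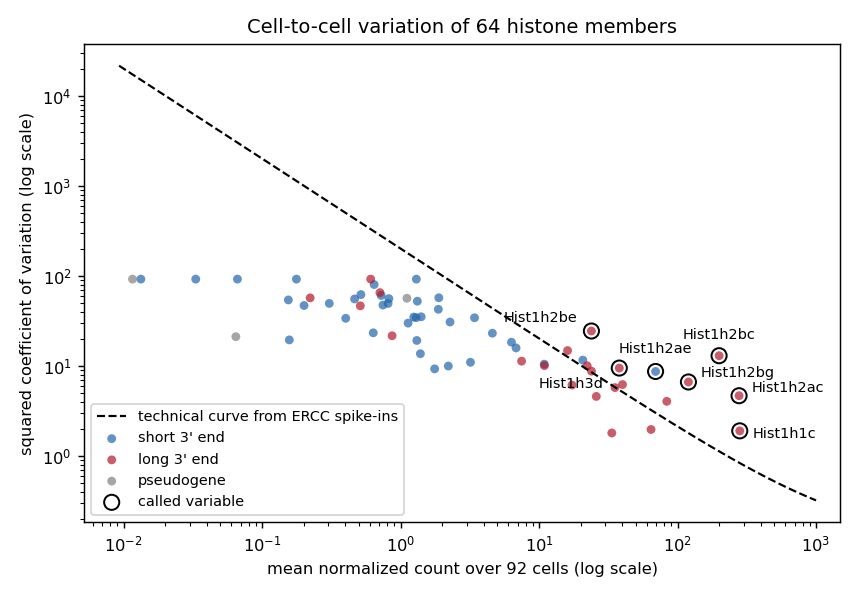
Each point is 1 of 64 members with counts, with its mean normalized count over 92 cells on the x axis and its CV2 on the y axis, both on log scales. Red marks long-end, blue short-end members and grey pseudogenes, the dashed line is the technical curve and rings mark the 7 called members. The points under a mean of 2.18 all lie below the curve, and Hist1h2bc lies farthest above it, at 11.5 times.

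Members tended to be counted together. For the 19 members counted in at least 20 cells, Pearson's r of log10(normalized count + 1) was above 0 in 167 of 171 pairs, with a median of 0.215 and a range of -0.125 to 0.818. Over all 52618411 pairs of other genes counted in at least 20 cells the median was 0.010 and 53.8% were above 0. An r over 0.3 was reached by 29.8% of member pairs, against 0.352% of other pairs. All points in such a correlation share the same 92 libraries and their depth, and pairs of near-identical members share reads. The highest r, 0.818, was between Hist1h2ao and Hist1h2ap, which cannot be told apart over most of their sequence. The next was 0.647 between Hist1h2bf and Hist1h3d, which lie 1567 bases apart and differ in family, and were both counted in 20 cells, each alone in 13 and 8, and neither in 51. In the 11 pairs with under 5000 bases between the genes, all values were positive, from 0.067 to 0.647 with a median of 0.349. Some distant pairs of different families had values as high, such as Hist1h2ao and Hist1h3d with 0.527 and 1764820 bases between them. Without cell 66, 163 of 171 pairs were above 0, with a median of 0.202 and 23.98% over 0.3, and without cell 71, 156, with a median of 0.178 and 21.1% over 0.3. Hist3h2ba and Hist1h4d had the lowest medians over their 18 pairs, 0.080 and 0.099. For Hist1h4d 15 of the 18 were positive, from -0.125 with Hist3h2a and -0.072 with Hist1h2bc up to 0.215 with Hist1h2ac and 0.268 with Hist1h3f.

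**Figure D4:**
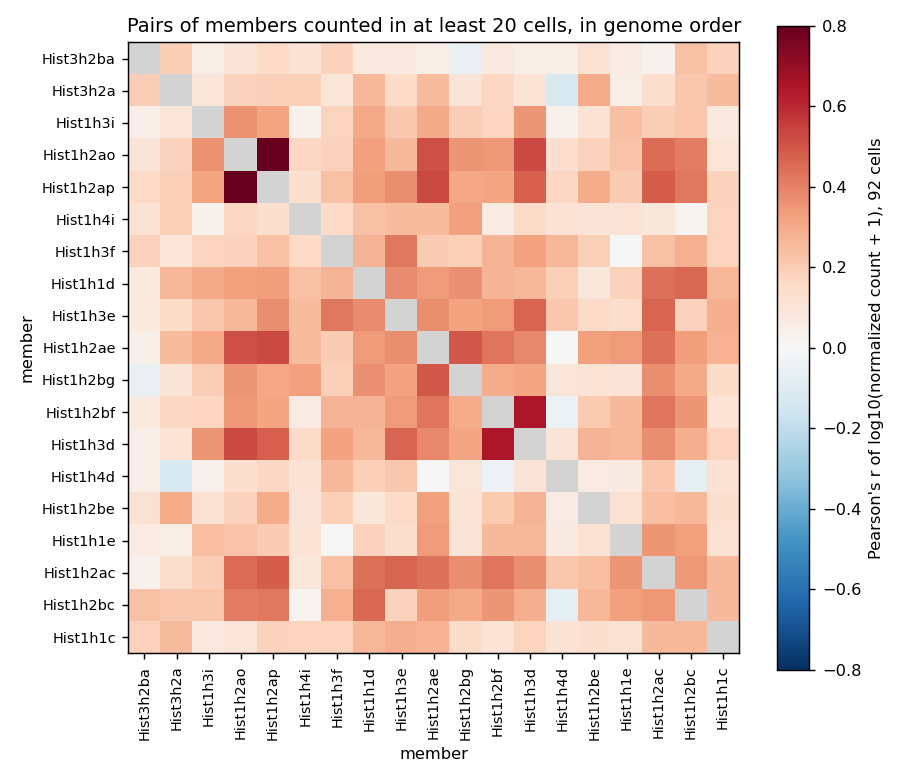
Both axes list the 19 members counted in at least 20 cells in genome order, and the colour gives Pearson's r across 92 cells for each pair, from blue (negative) through white (0) to red (positive). Nearly all cells of the matrix are red, with 167 of 171 pairs above 0, and the rows of Hist3h2ba and Hist1h4d hold the lowest median r, 0.080 and 0.099.

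The pair Hist1h2ac and Hist1h2bc is divergent: the genes point away from each other, with 250 bases between their annotated starts. Both were highest in cell 71, with 3528 and 6334. They were both counted in 44 cells, Hist1h2ac alone in 16, Hist1h2bc alone in 18 and neither in 14, and their r was 0.349 (rho 0.329, and 0.317 without cell 71). The next cells differed. Cell 28 had 2671 for Hist1h2bc and 5.98 for Hist1h2ac, and cell 27 had 3220 for Hist1h2ac and 232 for Hist1h2bc. The stretch between the starts is shown here because these 2 members had the largest ratios to the technical curve. It is the RefSeq promoter of Hist1h2ac, GRCm38.p6, chr13:23683960-23684198, 239 bases read 5′ to 3′ on the minus strand toward Hist1h2ac. Capitals mark, on either strand, 1 octamer (ATTTGCAT, shown as its reverse complement), 1 TATAAA and 3 CCAAT boxes (those written ATTGG lie on the plus strand), which do not overlap.
Hist1h2ac and Hist1h2bc: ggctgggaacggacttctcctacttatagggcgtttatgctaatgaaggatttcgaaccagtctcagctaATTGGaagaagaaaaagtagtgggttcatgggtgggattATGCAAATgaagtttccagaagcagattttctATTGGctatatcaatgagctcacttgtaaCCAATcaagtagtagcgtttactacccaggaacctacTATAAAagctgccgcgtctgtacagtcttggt

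RefSeq gave a promoter for 61 members. In the 250 bases before the start, ATTTGCAT was found on either strand in 13 of the 61, which were 7 of 17 H2A and 6 of 16 H2B genes and none of the 28 H1, H3 and H4 genes, against 1.601% of 32851 promoters. TATAAA was found in 29 of 61 (against 12.4%) and CCAAT in 50 of 61 (against 33.8%). CCAAT was in all H1, H2A and H2B promoters, in 8 of 10 H3 promoters and in 3 of 12 H4 promoters. A match describes the letters in this window and does not show that a factor binds there.

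Summed over members, long-end histones ranged from 41.1 to 17537 normalized counts per cell with a median of 830.4, and all 92 cells had some. Short-end histones ranged from 0 to 2318 with a median of 33.7, in 86 cells. The short-end sum was the more unevenly spread: the 9 highest cells held 63.9% of it, against 40.4% of the long-end sum. The 5 highest cells were 66 with 2318, 31 with 1650, 71 with 1207, 63 with 1129 and 9 with 826. In cells 31, 63 and 9 the sum was mostly Hist1h2ae, with 1318, 809 and 758. Cell 66 was different. It had counts for 28 short-end members, where the median cell had 3.5, and was the highest cell for 15 members, 14 of them short-end. Among these were Hist1h1b with 130.3, Hist1h2ab with 90.6 and Hist1h3i with 552. Cell 71 was the highest cell for 13 members, 10 of them long-end, and 0.983% of its counts were histone counts, the highest share of all cells. The long-end and the short-end sum went together across the 92 cells, with r = 0.518 and rho = 0.585. The r was 0.505 without cell 66, 0.490 without cell 71 and 0.436 without Hist1h2ae.

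Since S phase is when histone genes are known to be active, the sums were set beside scores of 50 G1/S and replication genes and of 49 G2/M and mitosis genes. Each gene was scaled to unit variance over the cells, and the score of a cell averages the genes of the list. The summed short-end members had r = 0.037 and rho = 0.019 with the G1/S score, -0.012 without cell 66, and 0.180 with spike-in size factors. With the G2/M score r was 0.209 and rho -0.098, and r was 0.074 without cell 66. That cell had the highest G2/M score of all, 3.36, and ranked 6th by G1/S score with 0.90. It had 569 normalized counts of Mki67, the proliferation marker. It also had 8661 detected genes, near the top of the range. The 3 cells with the highest G2/M scores, 66, 78 and 49, were also the highest for platelet factor Pf4, a marker of megakaryocytes, with 4768, 6885 and 2233 normalized counts, and no other cell exceeded 338.8. Among the 19 markers of other marrow cells, Itga2b stood at 529, 1141 and 404 in these cells. Ppbp, also a platelet gene, was counted in only 2 of the 92 cells, at 174 or less. The short-end sums of cells 66, 78 and 49 were 2318, 66.8 and 134. Over all 19 markers of other cells, the summed level ran from 0 to 8026 with a median of 68.6, and its r was 0.270 with the short-end sum (0.231 without cell 66) and 0.051 with the long-end sum. The part of these transcripts and of depth in the short-end counts of cell 66 was not tested. Cell 71 had a G2/M score of 1.05, a G1/S score of -0.29 and 1.75 normalized counts of Mki67, and its summed level of the other markers was 0.875.

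The long-end sum was lower where the G1/S score was higher, with r = -0.351 and rho = -0.133. This rested in good part on cells 53 and 74, which had the highest G1/S scores, 2.61 and 1.54, and the lowest long-end sums, 51.6 and 41.1. Without these cells, chosen after seeing the data, r was -0.160. After adjustment for the detected genes per cell it was -0.252, and with spike-in size factors -0.120. In cell 53, Rrm2, a subunit of ribonucleotide reductase, stood at 466 and Slbp at 934, both the highest of all cells, while Hist1h2bc, Hist1h2ac and Hist1h1c were at 0 and Hist1h4d at 16.7. The long-end sum also went with the share of spike-in counts (r = 0.248) and of mitochondrial counts (r = 0.245), and their part in this was not tested. Hist1h2bc alone had r = -0.164 with the G1/S score and 0.097 with the G2/M score, and Hist1h1c had -0.224 and -0.068. These are weak values in sparse counts.

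**Figure D5:**
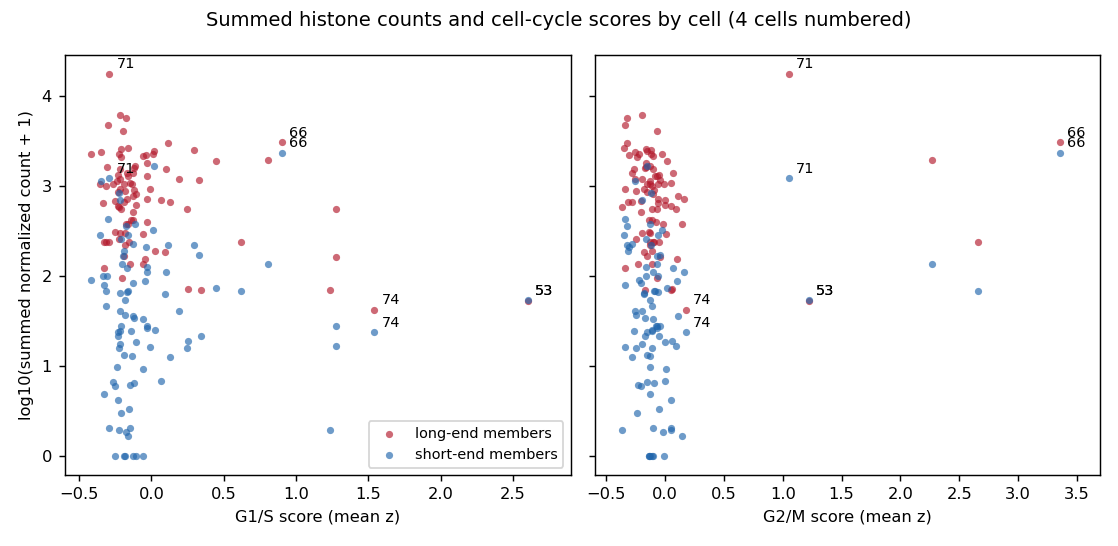
Each cell is plotted as 2 points, red for the log10 of its summed long-end normalized counts + 1 and blue for its short-end members, against its G1/S score (left) and its G2/M score (right), for 92 cells. Cells 53, 66, 71 and 74 are numbered. Cells 53 and 74 have the highest G1/S scores and the lowest long-end sums, and cell 66 has the highest G2/M score and the highest short-end sum, 2318.

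The genes of both lists were also related to the sums one by one. Of 50 G1/S genes, 28 had a positive r with the short-end sum, near the 51.4% of all 14017 genes counted in at least 5 cells. With the long-end sum 2 of 50 were positive, at a median of -0.170, against 41.9% and a median of -0.023 for all genes. These values come from the same cells as the r of that sum with the G1/S score, which was -0.160 without cells 53 and 74. The gene-by-gene count was not repeated without those cells. Of 49 G2/M genes, 41 were positive with the short-end sum, at a median of 0.114, and 25 with the long-end sum. Without cell 66, which was highest in both measures, 31 of 49 were positive with the short-end sum, at a median of 0.048, against 49.4% of all genes, and 20 with the long-end sum. Cenpf, a kinetochore protein, had an r of 0.342 with the short-end sum (0.291 without cell 66) but was counted in only 9 cells. Among the G1/S genes, Pola1, the catalytic subunit of DNA polymerase alpha, had 0.210 and Prim2, a primase subunit, -0.208. All genes of a list share the same cells, so these counts are not independent of each other.

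The genes that make and process histone mRNA were counted in a median of 66.3% of cells. Of these 25 genes of histone mRNA metabolism, 6 lay above the technical curve (24%) and 1 was called variable (4%, chi-square test, adjusted p under 0.1). The shares were 12.4% and 2.64% of all genes, and 23.4% and 4.84% of genes with a mean of at least 20. The list, with a median mean of 92.9, lay near the latter. The called gene was Casp8ap2, which is needed for histone transcription in S phase. Slbp was counted in 66 cells, with a mean of 158 ± 160 over all 92. Snrpb, a core protein of snRNPs, was counted in 91 cells at 767 ± 382 and Ybx1, an RNA-binding protein, in all 92 at 631 ± 372. Srrt, which links the cap of the RNA to its processing, had the largest r with the short-end sum, 0.325. Of 25 histone chaperones, with a median mean of 117, 3 were above the curve (12%) and 1 was called (4%). These shares are near those of all genes. Among genes with a mean of at least 20, 23.4% were above the curve and 4.84% were called. The called chaperone was Hat1, which acetylates new H4. Npm1, an abundant nucleolar chaperone, was counted in 92 cells at 3154 ± 1224, and Rbbp7 in 91 at 659 ± 370.

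Histone genes outside the clusters, most of which are expressed throughout the cell cycle with a poly(A) tail, were counted more widely. The 14 of them with counts were seen in a median of 90.2% of cells, against 9.24% for the 70 clustered members, the 6 without counts included. H3f3b, which encodes the replacement histone H3.3, was counted in all 92 cells, from 962 to 19160 with a median of 3239, and H3f3a, which encodes the same protein, from 206 to 939 with a median of 395. H2afz, which encodes H2A.Z, ranged from 66.9 to 3459. Of the 14, 5 were above the curve (35.7%, against 12.4% of all genes and 23.4% of those with a mean of at least 20) and 3 were called (21.4%, against 2.64% and 4.84%), namely H1f0, a linker histone of resting cells (ratio 6.26, counted in 82 cells), H2afx and Cenpa. H3f3b had the largest r of this list with either sum, 0.437 with the long-end and 0.193 with the short-end one, beside 0.228 for the chaperone Set with the latter.

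The genes with the pattern most like that of Hist1h2bc, out of 5879 counted in at least 20 cells at a mean of at least 50, were Actr2 (r = 0.356), Slc6a6 (0.352), Zfp763 (0.327), Prkar1a (0.323) and Prodh (0.318). For the short-end sum they were Rab5a (0.388), Actr2 (0.378), Cnot8 (0.335), Flad1 (0.332) and Mtx1 (0.328). These are the upper end of many weak values over 92 cells, and the r of Actr2 with Hist1h2bc was 0.365 without the 2 cells farthest from the median.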

How the data were processed

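Single HSC1 cells were sequenced by a Smart-seq2 protocol, paired end. Reads were aligned to mm10; per the submitters' processing notes HTSeq (0.6.1), STAR (2.3.0) and SAMtools (0.1.18) were used, whereas the annotation release, the strand setting and the handling of reads with several matches are not given in the sources used here. The authors deposited raw read counts per gene (38406 genes and 92 ERCC spike-ins), with no molecular identifiers. Intervals of a share of cells are exact binomial ones that take the 92 cells as independent draws, so variation between animals is not covered. A doublet caller was not run on these cells sorted 1 per well.

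Cells were left out when log10 gene counts or detected genes lay more than 3 scaled median absolute deviations (scale 1.4826) below the median, or the spike-in share as far above it, which kept 92 of 96 cells. Counts were divided by median-of-ratios size factors over 602 genes counted in every cell, and spike-ins by their own over 8 spike-ins. The technical curve (constant 0.120, slope 200.3) was fitted to the 16 spike-ins whose mean reached 67.0. All 21211 genes with counts entered the chi-square test, which asks for a biological coefficient of variation over 0.5 and was adjusted after Benjamini-Hochberg over all of them (threshold 0.1). Correlations used log10(normalized count + 1), and the lists were correlated for genes counted in at least 5 cells.

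All 70 members matched GENCODE M21 by symbol, and 61 matched a RefSeq promoter. Values in full were given for members with a mean of at least 20, the 5 with the largest ratios to the curve, Hist1h2bc, Hist1h1c and Hist2h2be. From each list up to 5 genes by mean and 3 by the size of r with the short-end sum could be named. Other genes named, such as Hist1h2ao, Slbp, Rrm2, Mki67, Pf4 and those called variable, were chosen after their values were seen. Members and lists were chosen with earlier results of these data known. Steps were tested on simulated data, where the chi-square test also called some unchanged genes of low mean. The work was done in Python 3.11.15 with scipy 1.17.1, pandas 2.3.3, matplotlib 3.10.9 and numpy 2.4.6. Alternatives changed the cells, size factors, filters, thresholds, pseudocount, end length and measure of correlation.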

Additional observations from a re-analysis of the deposited data

Results flagged for a closer look

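The 4 cells left out of the comparisons were looked at as data that no result above uses. Histone members were counted in 3 of them at more than the 3 counts that a count of 0 would allow. Cell 1 held 139 histone counts over 12 members among 633845 gene counts, cell 6 held 106 over 5 members among 794679, and cell 36 held 289 over 6 members among 4948251. Cell 2 held 1 histone count among 1035 gene counts. The first 3 lie within the 62 to 21424 histone counts of the kept cells.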

How the results depend on the processing

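Of 99 alternative values, 80 stayed near the reported one and 19 moved. Near meant counts within 1.5 times, correlations within 0.1 and percents within their 95% binomial interval. For the share in the 9 highest cells this interval took 16106 short-end reads as independent. It is therefore narrow, and 6 of the 19 come from that share. Among the 80, the r of the short-end sum with the G1/S score (0.037) changed sign 3 times, to -0.014 without the 2 farthest cells, -0.008 with detected genes held constant and -0.012 without cell 66. A minimum mean of 200 left 2 members above the technical curve (13 as reported) and 2 called (7), since only 2 of the 64 members were then tested. Hist1h2bc, with a mean of 199, and Hist1h2ae, Hist1h2bg, Hist1h2be and Hist1h3d no longer were. A curve fitted to spike-ins from the 50th percentile of their means called 11 members. The median share of cells for long-end members fell from 30.43% to 19.57% when a member needed at least 10 reads, and also when long ends began at 100 bases. In these settings that of short-end members (4.89%) was 2.17% and 5.43%. With spike-in size factors the r of the short-end sum with the G1/S score was 0.180 (0.037), and that of the long-end sum, an alternative chosen after seeing the data like the settings that leave out cells 53 and 74, 66 or 71, or Hist1h2ae, was -0.120 (-0.351). The latter was -0.133 as Spearman's rho and -0.160 without cells 53 and 74. The r of the short-end sum with the G2/M score (0.209) was -0.098 as rho, 0.089 without the 2 farthest cells and 0.074 without cell 66, and that of Hist1h2bc (0.097) was -0.134 as rho. The share of the short-end sum in the 9 highest cells (63.93%) was 63.05% with all 96 cells, 63.04% with total counts as size factors, 70.06% with spike-in size factors, 59.5% without cell 66, 63.01% without cell 71 and 58.62% without Hist1h2ae. With spike-in size factors 17 members lay above the curve (26.6%, against 24.9% of all genes), and with the 50th percentile 14 (21.9%, against 25.1%).

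No paired analysis was possible because there is 1 group, and the numbers in the labels only name the cells. Animals cannot be told apart, so no value covers their variation. A member counted in few cells at these depths (739093 to 3473151 gene counts) is not shown to be absent, and counts of members that share sequence are uncertain. Oligo-dT priming and the split of the members by annotated ends limit what the short-end counts say of RNA without a poly(A) tail.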
